A study of Mus musculus with 16 samples.

Results

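The interferon-inducible GTPase genes described here, 9 in all, were read in 4 groups of mouse brain libraries. They are the guanylate-binding proteins Gbp2, Gbp3, Gbp5, Gbp7, Gbp6 and Gbp9 and the immunity-related GTPases Irgm1, Igtp and Iigp1. They were taken from the count table by gene symbol, 9 of 54532 table entries, and each symbol occurred once. All 9 passed the filter on low counts that left 17736 genes. The libraries were made from frontal cortex of female mice of 9 months of age, per the labels, while the series' design text names the hippocampus. The 16 libraries form 4 groups of 4. With Ch25h intact these are Ch25h+/+ Tau- and Ch25h+/+ Tau+, and with both copies lost they are Ch25h-/- Tau- and Ch25h-/- Tau+, the tau status being as labelled. No treatment is labelled. The labels do not say which tau allele or promoter the Tau+ animals carry, nor name the Ch25h allele or the strain, and do not say that each library came from a separate animal, so p-values measure the spread between these libraries.

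Guanylate-binding proteins (GBPs) are large dynamin-like GTPases that are hardly made in resting cells and are strongly induced by interferons, above all interferon gamma. They coat pathogen vacuoles and bacterial membranes and help to open them to the cytosolic sensors that activate inflammasomes. The immunity-related GTPases (IRGs) are smaller and act on the same membranes: Iigp1 is an effector that is loaded onto vacuoles, whereas Irgm1 and Igtp are regulators that hold effectors inactive on the cell's own membranes. In the brain, microglia, astrocytes and endothelial cells can make these proteins in response to interferons. Ch25h, itself an interferon-induced gene, encodes the enzyme that turns cholesterol into 25-hydroxycholesterol.

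Interferons can act on genes of these families through 2 promoter elements, and the stretches that hold matches to them are shown as a description. Whether either element has a part in the levels of the 9 genes was not tested. One element is the gamma-activated site (GAS), searched as TTCNNNGAA, through which interferon gamma acts. The other is the core of the interferon-stimulated response element (ISRE), searched as GAAANNGAAA or, on the other strand, TTTCNNTTTC, which IRF proteins bind. The RefSeq promoter table (build GRCm38.p6) held 7 promoters of 6 of the 9 genes (Gbp2, Gbp3 with 2, Gbp5, Gbp7, Irgm1 and Igtp) and none for Gbp6, Gbp9 or Iigp1. Within 250 bases before the start, 6 of the 7 promoters held an ISRE core, 1 for each of the 6 genes, and 3 held a GAS (Gbp5, Gbp7 and Igtp). Of all 32851 promoters in the table, 2.98% held an ISRE core and 7.02% a GAS. No GAS overlapped an ISRE core in these promoters, while the 2 ISRE cores of Irgm1 overlap each other, as do those of Gbp3. A match is a match of letters and is no evidence of binding.

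The stretches around the matches follow, 5′ to 3′ on the gene's own strand, with the GAS and ISRE letters in capitals. The first 4 genes lie in 1 row on the plus strand of chromosome 3 (Gbp5 chr3:142496684-142496905, Gbp7 chr3:142530215-142530307, Gbp3 chr3:142559984-142560029, Gbp2 chr3:142620589-142620628), as does Gbp2b, a further GBP gene of the same row (chr3:142594695-142594734). Irgm1 (chr11:48871428-48871457, minus strand) and Igtp (chr11:58199496-58199546, plus strand) are on chromosome 11. Irgm2, the neighbour of Igtp, is shown beside it (chr11:58214887-58214937, plus strand). In GENCODE M21 the shown stretch of Irgm1 lies in an exon of a noncoding Irgm1 transcript, those of Gbp2, Gbp5 and Gbp3 overlap annotated exons by 27, 6 and 4 bases, and those of Gbp7, Gbp2b, Igtp and Irgm2 overlap no exon.
Gbp5: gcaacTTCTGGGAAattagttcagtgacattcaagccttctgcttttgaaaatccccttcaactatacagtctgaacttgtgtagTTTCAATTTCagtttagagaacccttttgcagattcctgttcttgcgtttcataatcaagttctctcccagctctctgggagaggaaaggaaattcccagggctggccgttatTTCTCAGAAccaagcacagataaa
Gbp7: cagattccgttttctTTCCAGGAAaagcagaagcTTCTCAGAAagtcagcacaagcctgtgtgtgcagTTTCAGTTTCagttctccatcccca
Gbp3: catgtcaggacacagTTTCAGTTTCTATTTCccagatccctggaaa
Gbp2: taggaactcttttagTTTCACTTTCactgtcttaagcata
Gbp2b: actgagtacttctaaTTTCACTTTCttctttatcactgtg
Irgm1: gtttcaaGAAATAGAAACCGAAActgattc
Igtp: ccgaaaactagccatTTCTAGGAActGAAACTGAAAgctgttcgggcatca
Irgm2: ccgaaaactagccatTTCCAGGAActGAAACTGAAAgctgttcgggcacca
Igtp and Irgm2 each carry the GAS just before the ISRE core, with the GAS beginning 45 and 75 bases before the start. Gbp5 carries GAS matches that begin 245 and 52 bases before the start, and Gbp7 ones at 106 and 87 bases. Gbp2 and Gbp2b carry the same ISRE letters, at 59 and 137 bases before the start.

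The genes lie on 4 chromosomes (GENCODE M21, build GRCm38). Gbp5, Gbp7, Gbp3 and Gbp2 stand in this order within 144 kb (chr3:142493978-142638008), Gbp9 and Gbp6 lie in another GBP cluster on chromosome 5, Irgm1 and Igtp apart from each other on chromosome 11, and Iigp1 on chromosome 18. Some of these genes cannot be read apart with certainty. Of the 100-base windows of the Gbp6 transcripts, 64.5% also occur in transcripts of other genes, chiefly Gm43302 and Gbp10, and the values of Gbp6 are uncertain. The share was 10.01% for Gbp7 (chiefly with Gm43802), 5.16% for Igtp (all with Irgm2, which its gene overlaps), 1.65% for Gbp9 (whose gene overlaps Gbp4 and Gbp8), 0.694% for Gbp3, 0.142% for Gbp5 and 0 for Gbp2, Irgm1 and Iigp1.

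The libraries held 15530352 to 25602500 counts, and the 9 genes had between 2 (Gbp6) and 350 (Irgm1) counts in a library, so counting error limits Gbp6 most. Levels are given as CPM, read counts scaled to library size, on sizes scaled by the trimmed mean of M values (TMM). Ch25h, which checks the genotype labels, had 5 to 30 counts in each Ch25h+/+ library. It was at 0 in each of the 8 Ch25h-/- libraries, and a floor of 3 counts lies between 0.117 and 0.195 CPM. The cortical markers summed to 685 to 909 CPM over the 16 libraries, with none at 0 in a group. One property of the libraries followed Ch25h genotype: the ribosomal transcript CT010467.1 took 2289 to 5684 CPM of the total in 7 Ch25h-/- libraries (called rRNA-rich here). It took 111 to 475 CPM in the remaining 9 (rRNA-poor), among them Ch25h-/- Tau+ replicate 1. Ch25h genotype and this library class therefore cannot be told apart except through that 1 library. The summed level of 6 choroid plexus markers ranged from 15.3 to 2753 CPM over libraries of every group.

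With Ch25h present, all 9 genes were higher in Tau+ than in Tau-, with no overlap of the 4 and 4 libraries in any of them. Of all genes tested, 3.89% were higher without overlap. Past the threshold were 7 of the 9 (Gbp2, Gbp3, Gbp7, Gbp9, Irgm1, Igtp and Iigp1), against 1.47% of all genes tested that passed as higher (edgeR quasi-likelihood test, Benjamini-Hochberg adjusted over all genes, threshold 0.05). The median log2 fold change of the 9 was 0.95, with a range of 0.74 to 1.502, beside a median of -0.01 over all genes tested. Without Ch25h+/+ Tau- replicate 1, replicate 2 or replicate 4 the count was 4 in each case.

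**Figure D1:**
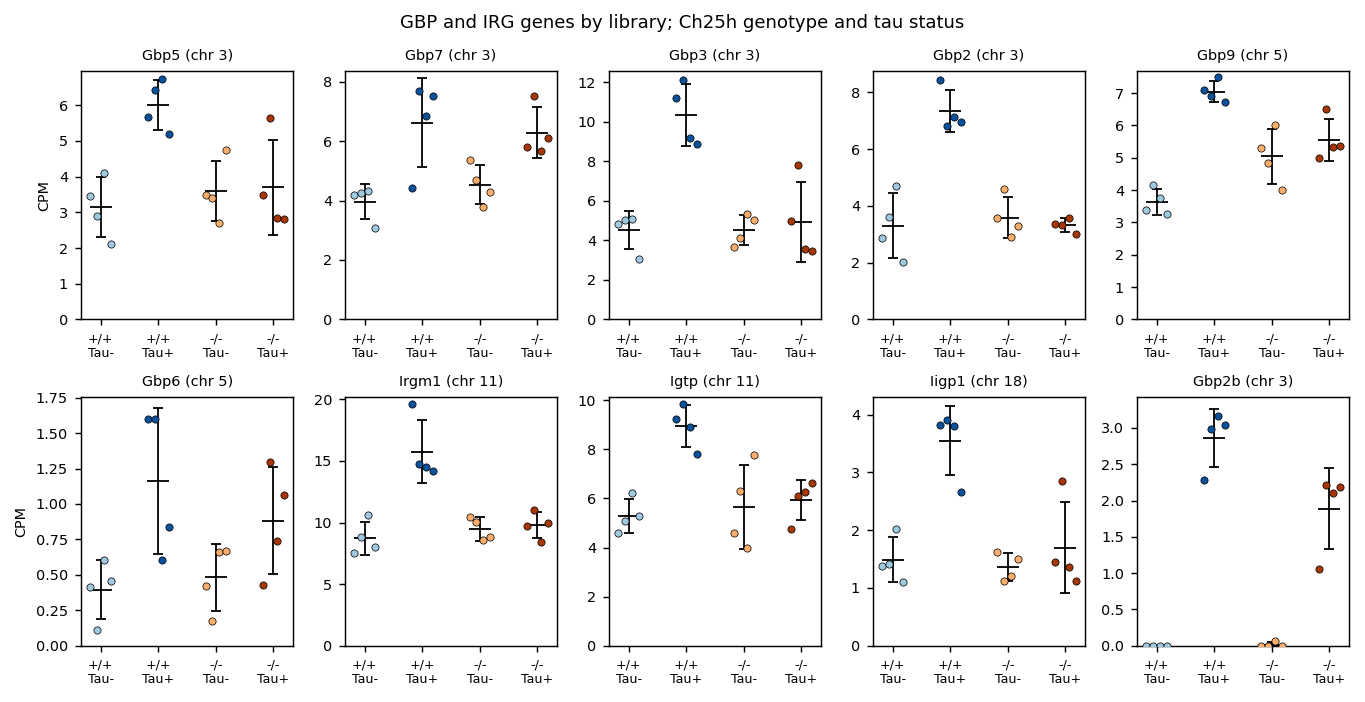
Normalised read counts (CPM, linear axes from 0) of the 9 genes and of Gbp2b in each of the 16 libraries, by Ch25h genotype and tau status. Points are libraries, and bars are the mean and SD of 4. In each panel the 4 Ch25h+/+ Tau+ points lie above the 4 Ch25h+/+ Tau- points, and Gbp2b is at or next to 0 in every Tau- library.

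Gbp2, which in mice is recruited to parasite vacuoles together with the IRG effectors, read 2.86, 3.61, 4.70 and 2.02 CPM in the Ch25h+/+ Tau- libraries and 8.44, 6.82, 7.11 and 6.96 CPM in the Ch25h+/+ Tau+ libraries. Every Tau+ library lay above every Tau- library. The rise was 2.21-fold (log2 fold change 1.14, SE 0.20, edgeR adjusted p 0.00416). Gbp3, its neighbour in the row, read 4.80, 5.03, 5.09 and 3.07 CPM in Tau- and 11.2, 12.1, 9.16 and 8.87 CPM in Tau+. It rose 2.29-fold (log2 fold change 1.197, SE 0.23, edgeR adjusted p 0.00703).

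Gbp7 stood closer to the edge of the test. It read 4.204, 4.27, 4.31 and 3.07 CPM in Tau- and 4.44, 7.70, 6.83 and 7.52 CPM in Tau+, so that the lowest Tau+ library, replicate 1, was close to the highest Tau- library. Its log2 fold change was 0.74 (SE 0.18, edgeR adjusted p 0.0429), and it passed in only 8 of 16 fits made without 1 library. It also missed with the library class covariate (edgeR adjusted p 0.0536) and when only the 8 Ch25h+/+ libraries were fitted (edgeR adjusted p 0.134). Gbp5, known for its part in activation of the NLRP3 inflammasome, read 2.12 to 4.10 CPM in Tau- and 5.18 to 6.74 CPM in Tau+. It missed the threshold with a log2 fold change of 0.93 (SE 0.24, edgeR adjusted p 0.0556), and passed with DESeq2 and with limma-voom.

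On chromosome 5, Gbp9 had the smallest p of the 9 genes. It read 3.37, 4.16, 3.75 and 3.27 CPM in Tau- and 7.08, 6.90, 7.48 and 6.72 CPM in Tau+, 2 tight sets apart by more than their spread (log2 fold change 0.95, SE 0.15, edgeR adjusted p 0.00122). Gbp6 had the lowest level and the widest error, with 2 to 14 counts in Tau- and 13 to 38 in Tau+ (log2 fold change 1.502, SE 0.48, edgeR adjusted p 0.180). Its absence of overlap is marginal, since the highest Tau- and the lowest Tau+ library both stood at 0.604 CPM.

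The 3 IRG genes all passed. Irgm1, the regulator with the highest CPM of the 9 genes, read 7.53, 8.81, 10.6 and 8.01 CPM in Tau- and 19.6, 14.7, 14.5 and 14.2 CPM in Tau+. Its log2 fold change was 0.85 (SE 0.14, edgeR adjusted p 0.00174). Igtp, the other regulator, went from 4.57 to 6.21 CPM in Tau- to 7.80 to 9.84 CPM in Tau+ (log2 fold change 0.76, SE 0.18, edgeR adjusted p 0.0382). The effector Iigp1 read 1.39, 1.42, 2.03 and 1.11 CPM in Tau- and 3.82, 3.91, 3.81 and 2.66 CPM in Tau+. It rose 2.37-fold (log2 fold change 1.25, SE 0.26, edgeR adjusted p 0.0171). With single libraries left out, Igtp passed in 9 and Iigp1 in 13 of 16 fits, while Gbp2, Gbp3, Gbp9 and Irgm1 passed in all 16.

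**Figure D2:**
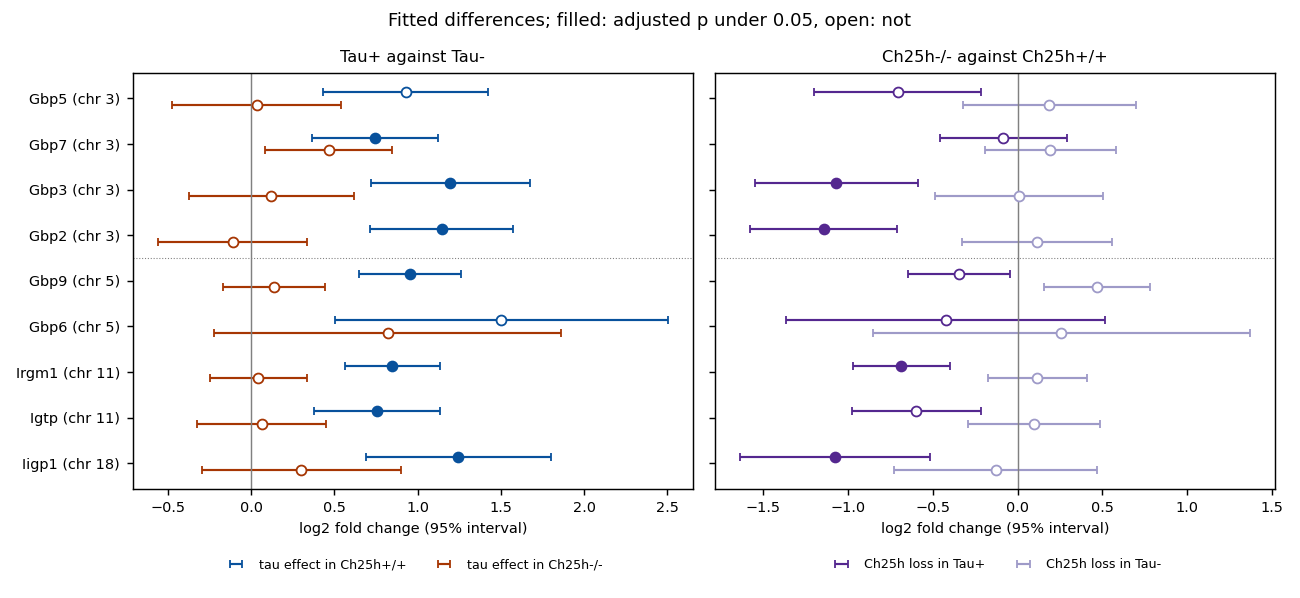
Log2 fold changes with 95% intervals from 1 fit of all 16 libraries, for Tau+ against Tau- (left) and Ch25h-/- against Ch25h+/+ (right), with the chromosome 3 genes above the dotted line. Filled points passed an adjusted p of 0.05 and open points did not: 7 of 9 are filled for tau in Ch25h+/+, 0 of 9 for tau in Ch25h-/-, 4 of 9 for Ch25h loss in Tau+ and 0 of 9 for Ch25h loss in Tau-.

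With Ch25h absent, none of the 9 genes passed the threshold for tau, beside 0.0395% of all genes tested in either direction. By edgeR, 1 of the 9 (Gbp7) had an unadjusted p under 0.05, against 3.68% of all genes, and no member passed with DESeq2 or limma-voom either. The median log2 fold change was 0.12, with a range of -0.11 (Gbp2) to 0.82 (Gbp6), beside 0.01 over all genes tested. Gbp2 read 3.55, 4.59, 2.89 and 3.29 CPM in Ch25h-/- Tau- and 3.36, 3.31, 3.58 and 2.998 CPM in Ch25h-/- Tau+, so the groups lay within each other (log2 fold change -0.11, 95% interval -0.56 to 0.34). Irgm1 read 10.48, 10.1, 8.56 and 8.81 CPM in Tau- and 9.74, 10.98, 8.41 and 9.99 CPM in Tau+ (log2 fold change 0.04, 95% interval -0.25 to 0.34). Both intervals end below the fitted rise of the same gene in Ch25h+/+, which has an error of its own. The intervals of Gbp7 (0.08 to 0.85) and Gbp6 (-0.22 to 1.86) include the fitted rises of these genes (0.74 and 1.502). In the fit without Ch25h-/- Tau+ replicate 1, both Ch25h-/- groups held rRNA-rich libraries only, and again 0 of the 9 passed. The Ch25h+/+ libraries stayed in that fit.

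Gbp7 was the 1 gene of the 9 whose Ch25h-/- libraries did not overlap between the tau states, where 1.14% of all genes tested were higher without overlap. It read 5.36, 4.71, 3.80 and 4.29 CPM in Tau- and 5.79, 7.54, 5.68 and 6.12 CPM in Tau+. The log2 fold change of 0.47 (SE 0.18, 95% interval 0.08 to 0.85) had an unadjusted p of 0.0200 and did not pass after adjustment (edgeR, Benjamini-Hochberg). Replicate 2 was the highest Ch25h-/- Tau+ library in 7 of the 9 genes, all but Gbp2 and Igtp. In that group Gbp3 read 4.97, 7.80, 3.58 and 3.43 CPM, Gbp5 3.48, 5.65, 2.84 and 2.81 CPM, and Iigp1 1.45, 2.86, 1.36 and 1.12 CPM.

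The interaction, the tau difference in Ch25h-/- minus that in Ch25h+/+, tests this contrast itself. It was negative, a smaller tau effect in Ch25h-/-, in 9 of the 9 genes, with a median of -0.82 and a range of -1.26 to -0.28, beside 0.02 over all genes tested. None of the 9 passed the threshold (edgeR, 0.0338% of all genes tested passed), while 7 of the 9 had an unadjusted p under 0.05, against 4.13% of all genes. DESeq2 passed 2 of the 9, Gbp2 with an adjusted p of 0.0196 and Irgm1 with 0.0323, and limma-voom passed 0. In the edgeR fit Gbp2 had the largest value (-1.26, SE 0.30, edgeR adjusted p 0.188) and Gbp7 the smallest in size (-0.28, SE 0.26, not past the threshold by edgeR). Whether Gbp7 differs from its neighbours in this was not tested. Averaged over both genotypes, the tau effect passed as higher in 3 of the 9 (Gbp7, Gbp9 and Irgm1), against 0.772% of all genes (edgeR). Irgm1 did not pass with the library class covariate (edgeR adjusted p 0.0543) and passed in 8 of 16 fits without 1 library.

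In Tau+ libraries, loss of Ch25h went with lower levels in 9 of the 9 genes. Gbp2, Gbp3, Irgm1 and Iigp1 passed the threshold as lower, 4 of the 9, against 2.40% of all genes tested that passed as lower (edgeR quasi-likelihood test, Benjamini-Hochberg). In 5 of the 9 the libraries did not overlap, against 5.74% of all genes tested that were lower without overlap. The median log2 fold change was -0.69, beside 0.00 over all genes tested. This comparison shares the Ch25h+/+ Tau+ libraries with the tau effect in Ch25h+/+, so it is no second observation of it.

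Gbp2 was at 7.33 ± 0.749 CPM (SD, n = 4) in Ch25h+/+ Tau+ and 3.31 ± 0.240 CPM (SD, n = 4) in Ch25h-/- Tau+, a log2 fold change of -1.14 (SE 0.21, edgeR adjusted p 0.00742). Gbp3 stood at 10.3 ± 1.58 and 4.95 ± 2.02 CPM (SD, n = 4), a log2 fold change of -1.07 (SE 0.23, edgeR adjusted p 0.0202). Irgm1 stood at 15.8 ± 2.57 and 9.78 ± 1.06 CPM (SD, n = 4), a log2 fold change of -0.69 (SE 0.14, edgeR adjusted p 0.0134). Iigp1 stood at 3.55 ± 0.595 and 1.699 ± 0.786 CPM (SD, n = 4), a log2 fold change of -1.07 (SE 0.27, edgeR adjusted p 0.0352), with 1 library of Ch25h-/- Tau+ at 2.86 CPM inside the Ch25h+/+ range. Igtp (log2 fold change -0.60, SE 0.18, edgeR adjusted p 0.0691), Gbp5 (-0.71, 0.24, 0.0895) and Gbp9 (-0.35, 0.14, 0.153) did not pass, while DESeq2 and limma-voom each passed Gbp5 and Igtp as well, 6 of the 9. Gbp7 differed least, at 6.62 ± 1.504 and 6.28 ± 0.857 CPM (SD, n = 4; log2 fold change -0.08, 95% interval -0.46 to 0.29).

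Of 16 fits that each left out 1 library, Gbp2 kept its call in 16, Irgm1 in 15, Gbp3 in 14 and Iigp1 in 11. The count was 1 without Ch25h-/- Tau+ replicate 3, 2 without replicate 4 of that group, 1 (Gbp2) when only the 8 Tau+ libraries were fitted, and 0 with a covariate for library class. With that covariate the log2 fold changes of the 4 genes were -1.12 for Gbp2, -1.06 for Gbp3, -0.69 for Irgm1 and -1.29 for Iigp1, with edgeR adjusted p of 0.695 to 0.890. Ch25h-/- Tau+ replicate 1, the 1 Ch25h-/- library of the rRNA-poor class, lay below all 4 Ch25h+/+ Tau+ libraries in 8 of the 9 genes (all but Gbp7), as it did in 17.5% of all genes tested. In Tau- libraries, loss of Ch25h moved none of the 9 past the threshold, beside 1.03% of all genes tested, and 1 of the 9 (Gbp9) had an unadjusted p under 0.05 by edgeR, against 20.9% of all genes. Limma-voom also passed 0, and DESeq2 gave an adjusted p for Irgm1 alone and did not pass it. The log2 fold changes there ran from -0.13 (Iigp1) to 0.47 (Gbp9, SE 0.15, edgeR adjusted p 0.0963).

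Levels can be ordered between genes only per length, here as CPM per kb of annotated exon. In Ch25h+/+ Tau- the order was Igtp (2.62 ± 0.339), Irgm1 (1.503 ± 0.230), Gbp3 (1.38 ± 0.294), Gbp2 (1.31 ± 0.454), Gbp7 (0.706 ± 0.106), Gbp9 (0.704 ± 0.0777), Gbp5 (0.474 ± 0.127), Iigp1 (0.255 ± 0.0665) and Gbp6 (0.0665 ± 0.0348), in CPM per kb (SD, n = 4). Of the neighbours in this order, Irgm1 with Gbp3, Gbp3 with Gbp2, Gbp7 with Gbp9 and Gbp5 with Iigp1 overlapped in their libraries. Igtp had the highest and Gbp6 the lowest mean in all 4 groups, with the libraries of Gbp6 overlapping those of Iigp1 in Ch25h-/- Tau+. In Ch25h+/+ Tau+, Gbp3 (3.17 ± 0.483) and Gbp2 (2.91 ± 0.298) had a higher mean than Irgm1 (2.71 ± 0.442 CPM per kb, SD, n = 4), but the libraries of both overlapped those of Irgm1. These values use the exons of all annotated transcripts and would change with the transcripts that cortex uses.

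The 4 genes on chromosome 3 were set against the 5 on other chromosomes. In Ch25h+/+ the tau effect had a median log2 fold change of 1.04 in the chromosome 3 genes (3 of 4 past the threshold) and 0.95 in the others (4 of 5). In Ch25h-/- the medians were 0.08 and 0.14, with 0 calls in either set. For Ch25h loss in Tau+ they were -0.89 (2 of 4 called) and -0.60 (2 of 5 called). The mean of log2(CPM + 0.5) over the chromosome 3 genes exceeded that over the others by 0.33 ± 0.25 in Ch25h+/+ Tau-, 0.40 ± 0.17 in Ch25h+/+ Tau+, 0.33 ± 0.11 in Ch25h-/- Tau- and 0.24 ± 0.18 in Ch25h-/- Tau+ (SD, n = 4 each). The libraries of the 4 groups overlapped in this distance, and a difference between the groups was not tested. The lowest library was Ch25h+/+ Tau- replicate 4 at -0.03, against 0.38 to 0.50 in the rest of its group.

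**Figure D3:**
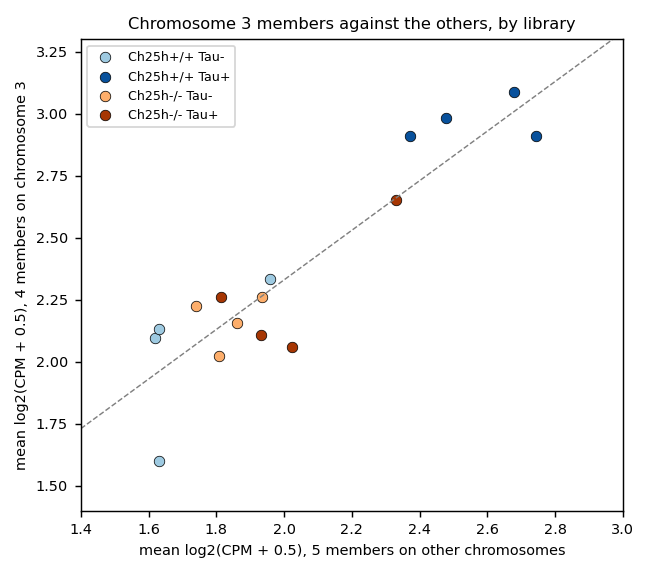
Mean log2(CPM + 0.5) of the 4 chromosome 3 genes (vertical axis) against that of the 5 genes on other chromosomes (horizontal axis) in each of the 16 libraries. The dashed line marks the mean distance between the sets in Ch25h+/+ Tau-, 0.33. The 4 Ch25h+/+ Tau+ libraries lie highest on both axes, and the libraries of all groups scatter along the line.

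Gbp2b, a GBP gene between Gbp3 and Gbp2 (chr3:142594847-142619179), was at or next to 0 without tau, unlike the 4 genes around it. With no tau and Ch25h present it was at 0 counts in each of 4 libraries, and in Ch25h-/- Tau- it had 0, 0, 1 and 0 counts. In Tau+ it read 2.28, 2.99, 3.16 and 3.03 CPM with Ch25h present and 1.06, 2.21, 2.10 and 2.19 CPM with Ch25h absent. It was at least 19.7-fold higher in Tau+ with Ch25h present, taking 3 counts per library as the floor. With Ch25h absent the ratio was 122 (133 counts against 1, exact 95% interval 21.4 to 4835, counting error only). These folds have different denominators, a floor and a single count, and cannot be set against each other. Of the 4 genes around it, Gbp7 was also higher in Tau+ without overlap in both genotypes (log2 fold changes 0.74 and 0.47). It passed only with Ch25h present. Gbp2b passed in both genotypes (edgeR adjusted p 2.43e-06 and 7.55e-05). Its transcripts share no 100-base window with any other gene, Gbp2 and Gbp3 included. Between the Tau+ groups it was lower with Ch25h absent without overlap (log2 fold change -0.62, SE 0.29), which did not pass (edgeR adjusted p 0.207).

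Around the row, 14 further genes within 2 Mb of the chromosome 3 GBP genes were tested. One of them passed for tau, the noncoding gene 4930590L14Rik, at -1542 kb from the row. It was listed at 0 in each Tau- library. In Tau+ it reached 0.792 ± 0.216 CPM with Ch25h present and 1.19 ± 0.101 CPM with Ch25h absent (SD, n = 4 each). The genes next to the row, Pdlim5 (log2 fold change 0.18, SE 0.13, in Ch25h+/+), Kyat3 (-0.11, 0.16) and Gtf2b (0.06, 0.10), did not pass in either genotype. Tau status and any stretch of chromosome 3 inherited with it cannot be told apart in these libraries. Around the chromosome 5 GBP genes 1 of 23 further genes passed for tau in Ch25h+/+ (Spp1, named after its values were seen) and around Irgm1 and Igtp 0 of 86, and in Ch25h-/- 0 of either.

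**Figure D4:**
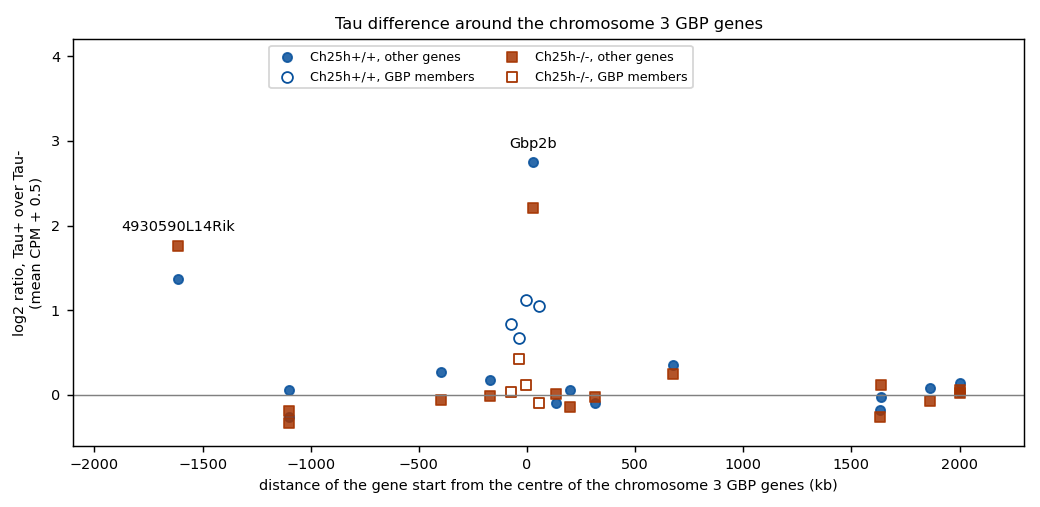
Log2 ratio of mean CPM + 0.5, Tau+ over Tau-, for the genes tested around the chromosome 3 GBP genes, against the distance of each gene's start from their centre in kb. Circles are Ch25h+/+, squares Ch25h-/-, and open symbols the 4 GBP members. Gbp2b and 4930590L14Rik are high in both genotypes, the members are higher in Ch25h+/+ than in Ch25h-/-, and the other genes lie between -0.33 and 0.35.

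Of 22 other family GTPases listed, 21 were in the table and 13 had enough counts to test. With Ch25h present 4 of the 13 passed as higher with tau, against 1.47% of all genes tested. They were Gbp2b, Gm4951, an IRG gene near Iigp1, and Mx1 and Mx2 of the antiviral dynamin-like family. GENCODE M21 lists Mx2 as a polymorphic pseudogene. Gm4951 stood at 0.236 ± 0.0643 and 1.13 ± 0.170 CPM (SD, n = 4), a log2 fold change of 2.21 (SE 0.41, edgeR adjusted p 0.00586). Mx1 went from 0.263 ± 0.113 to 1.59 ± 0.565 CPM and Mx2 from 0.639 ± 0.213 to 2.08 ± 0.601 CPM (SD, n = 4), with edgeR adjusted p of 0.00682 and 0.00683. The median of the 13 was 1.06, also with Gbp2b at its bound. Gbp4, whose gene overlaps Gbp9, gave 3.80 ± 1.84 and 3.96 ± 1.26 CPM (SD, n = 4; log2 fold change 0.06, 95% interval -0.60 to 0.72) and Irgm2, beside Igtp, gave 4.51 ± 1.41 and 7.18 ± 1.13 CPM (log2 fold change 0.67, SE 0.21, edgeR adjusted p 0.157). With Ch25h absent, Gbp2b was the 1 of the 13 that passed for tau, against 0.0395% of all genes tested in either direction. Ch25h loss passed in 0 of the 13 in Tau+, where 4 had an unadjusted p under 0.05 by edgeR, against 23.9% of all genes.

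Of 27 genes of interferon signalling listed, 25 were in the table and 23 were tested. With Ch25h present, Irf7, Irf8, Nlrc5 and Usp18 were among those that passed as higher with tau. Irf8, a transcription factor of microglia and other myeloid cells, stood at 6.29 ± 1.15 in Tau- and 13.1 ± 2.40 CPM in Tau+ (SD, n = 4), a log2 fold change of 1.06 (SE 0.18, edgeR adjusted p 0.00225). Irf7 went from 2.17 ± 0.551 to 7.53 ± 2.65 CPM and Usp18, a brake on type I interferon signalling, from 0.955 ± 0.165 to 3.58 ± 1.63 CPM (SD, n = 4). With Ch25h absent 0 of the 23 passed for tau (1 at an unadjusted p under 0.05 by edgeR, against 3.68% of all genes). In Tau+, Ch25h loss passed as lower in 7 of the 23, against 2.40% of all genes tested. These were Irf7, Irf8, Nlrc5, Usp18, Irf1 and the receptor chains Ifngr1 and Ifnar2. The interferon genes Ifng and Ifnb1 had 0 counts in all 16 libraries, which at this depth allows up to 0.195 CPM in the shallowest. Of 15 partners in inflammasome activation and autophagy, 1 passed as higher with tau in Ch25h+/+, against 1.47% of all genes tested. This was Gsdmd, the pore-forming gasdermin (log2 fold change 0.77, SE 0.18, edgeR adjusted p 0.0394). With Ch25h loss in Tau+, 1 of the 15 passed as lower, against 2.40% (Map1lc3a, log2 fold change -0.48, SE 0.12, edgeR adjusted p 0.0391). Map1lc3a and Ifnar2 were lower with Ch25h loss without overlap in Tau- as well (log2 fold changes -0.43 and -0.29), where neither passed (edgeR adjusted p 0.0737 and 0.108).

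The group that was highest in the 9 genes was also highest in microglial markers. The 8 microglial markers listed summed to 456 to 572 CPM in the Ch25h+/+ Tau+ group. The ranges of the remaining groups were 298 to 322 CPM (Ch25h+/+ Tau-), 295 to 332 CPM (Ch25h-/- Tau-) and 290 to 359 CPM (Ch25h-/- Tau+), and no marker was at 0. By edgeR 4 of the 8 passed as higher with tau in Ch25h+/+, against 1.47% of all genes tested. With tau in Ch25h-/- 0 of 8 passed, against 0.0395% in either direction. With Ch25h loss in Tau+ 5 of 8 passed as lower, against 2.40%. In bulk tissue, more cells of a type and more RNA per cell cannot be told apart. The 9 genes summed to 34.5 ± 5.44, 66.8 ± 4.77, 38.3 ± 2.18 and 42.1 ± 6.68 CPM (SD, n = 4) for Tau- and then Tau+ of Ch25h+/+, followed by Tau- and Tau+ of Ch25h-/-. Per 100 CPM of microglial markers this was 11.03 ± 1.705, 13.8 ± 2.26, 12.4 ± 0.882 and 13.02 ± 1.05 CPM (SD, n = 4) in the same order, with libraries of all 4 groups overlapping. Within Ch25h+/+ Tau+ the order of the libraries was opposite: replicates 1 to 4 had 71.1, 70.05, 65.2 and 60.7 CPM of the 9 genes and 456, 461, 478 and 572 CPM of microglial markers. The 5 astrocyte markers summed to 1170 to 2282 CPM in Ch25h+/+ Tau+ against 863 to 908 CPM in Ch25h+/+ Tau-. By edgeR 1 of the 5 passed (Gfap, with the largest log2 fold change, 2.46), and the median of the 5 was 0.19. In the Ch25h-/- groups it was 807 to 1097 CPM without and 931 to 1127 CPM with tau. The 5 endothelial markers summed to 202.6 to 248.9 CPM in Ch25h+/+ Tau+ and averaged 218 CPM there, against averages of 185 to 190.1 CPM in the remaining groups. The highest libraries reached 203.5 CPM in Ch25h+/+ Tau-, 205 CPM in Ch25h-/- Tau- and 209 CPM in Ch25h-/- Tau+, so the ranges overlapped. The 5 markers of border macrophages averaged 14.96 CPM in Ch25h+/+ Tau+ against 9.65 to 11.2 CPM elsewhere, and the libraries overlapped those of each remaining group. No marker of either list passed with tau in Ch25h+/+, by edgeR. The 8 T cell markers summed to 6.20 to 14.8 CPM over all libraries, with Cd3d at 0 in both Ch25h-/- groups and Cd8b1 at 0 in Ch25h-/- Tau-. The part of these cell types in the levels of the 9 genes was not tested.

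The genes outside the family whose log2(CPM + 0.5) most resembled the mean profile of the chromosome 3 genes over the 16 libraries were Tap1, Irf8, Parp14, Clec7a and Oasl2, with a Pearson correlation of 0.936 to 0.896. For the genes on other chromosomes they were B2m, Ifit3, Lgals3bp, Irf7 and Tap1, with 0.976 to 0.921. These correlations describe likeness over libraries that share the 4 groups, and no test was made of them.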

How the data were processed

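The deposited table gives raw counts per gene symbol for 16 libraries, with no normalization by the authors. STAR 2.7 and the build GRCm38 (mm10) are named per the submitters' processing notes, and a SMARTER mRNA library kit is named in the labels' protocols. The counting program, annotation and use of strand are not given in the sources used here, so overlapping and near-identical genes are uncertain. Of the 54532 symbols 98.7% were in GENCODE M21. Genes passing filterByExpr (17736) were tested with edgeR 4.0.16 in R 4.3.3 (quasi-likelihood F test, two-sided, TMM, 1 mean per group, all 16 libraries in 1 fit), adjusted over all genes by Benjamini-Hochberg at 0.05. Standard errors were derived from the F statistic. The procedure was tested on simulated data. Alternatives were RLE factors, total-count scaling, no filter, limma-voom (limma 3.58.1), DESeq2 1.42.0, a stricter filter (mean of 50 counts or more), a library class covariate (CT010467.1 above 1000 CPM), only the 8 libraries compared, and leaving out each library. The members, lists and alternatives were chosen with earlier results of these data known. Named genes were the 9 members, Gbp2b, Ch25h, listed genes past the threshold, genes past it within 2 Mb of the chromosome 3 row, and the 5 most similar genes per set. Gbp4, Irgm2, Pdlim5, Kyat3, Gtf2b and Spp1 were added after their values were seen. Replicate pairs of a group differed by more than sampling noise. Protein sequences were not used here, so their planned description was not run. Further lists (B cells, neutrophils, blood, hippocampus) were read as summed levels: over the 16 libraries they ran from 0.121 to 1.42, 0.302 to 2.03, 2.32 to 37.7 and 182 to 348 CPM. The result of 1 listed gene is not reported here.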

Additional observations from a re-analysis of the deposited data

Results flagged for a closer look

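In 5 of 38 sets of 4 libraries (the 9 genes and Gbp2b in each group, leaving out groups in which no library reached 3 counts) 1 library stood apart from the rest of its group, by a gap that took more of the group's range than Dixon's 95% critical value for 4 samples allows. Chance gives such a gap in about 1 in 20 groups. Gbp3 and Gbp7 were low in Ch25h+/+ Tau- replicate 4, each at 3.07 CPM. Irgm1 was high in Ch25h+/+ Tau+ replicate 1, at 19.6 CPM, and Iigp1 was low in Ch25h+/+ Tau+ replicate 4, at 2.66 CPM. Gbp2b was low in Ch25h-/- Tau+ replicate 1, at 1.06 CPM, the 1 library of that group in the rRNA-poor class.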

How the results depend on the processing

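No paired analysis was possible because the labels give no shared replicate numbers. Of the 9 members, leaving out 1 library gave 4 to 8 past the threshold for tau in Ch25h+/+ (7 with all libraries), 1 to 5 for Ch25h loss in Tau+ (4 with all), 1 to 5 for the mean tau effect (3 with all: Gbp7, Gbp9 and Irgm1), and 0 throughout for tau in Ch25h-/-, Ch25h loss in Tau- and the interaction. For Ch25h loss in Tau+ the count was 0 with the library class covariate and 1 with only the 8 libraries compared. DESeq2 gave 2 for the interaction and 5 for the mean tau effect, where no filter also gave 5. The mean tau count was 1 when any of these was left out: replicate 4 of Ch25h+/+ Tau-, replicate 3 or 4 of Ch25h-/- Tau-, or replicate 2 of Ch25h-/- Tau+. It was 5 when replicate 3 of Ch25h+/+ Tau- was left out. The cause was not tested. No call of a member changed direction under any alternative run. The difference in tau effect between the chromosome 3 genes and the others in Ch25h+/+ was 0.07 and -0.02 with a pseudocount of 0.1, and -0.05 to 0.15 with single libraries left out, so its sign is not fixed. Low counts limit Gbp6 most.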

Other observations

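The library that was highest or lowest within its group was counted over the 9 genes. In Ch25h+/+ Tau-, replicate 3 was the highest of 4 libraries in 8 of the 9 genes and replicate 4 the lowest in 6. In Ch25h-/- Tau+, replicate 2 was the highest in 7, and the lowest place was spread over replicates 1, 3 and 4. In Ch25h+/+ Tau+, replicate 4 was the lowest in 6, while the highest place was spread over replicates 1, 2 and 3 (3, 4 and 2 genes). In Ch25h-/- Tau- no library stood out as highest (3, 1, 2 and 3 genes for replicates 1 to 4), and replicate 3 was the lowest in 5. These are counts over genes of the same libraries, and no test was made of them.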
